A study of Chlorocebus sabaeus with 10 samples.

Results

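The miR-199 and miR-214 miRNAs were described in small RNA sequencing of liver tissue from 10 female vervet monkeys. For 6 weeks, 5 were fed the high fructose (HFr) diet and 5 were fed chow. The members of the miRNA group were taken by name from the count table. The 6 names were hsa-miR-199a-5p, hsa-miR-199a-3p, hsa-miR-199b-5p, hsa-miR-199b-3p, hsa-miR-214-3p and hsa-miR-214-5p (given below without the human prefix), of 2588 mature names in all. They stood on 11 of the 2948 rows and on 4 of the 1881 hairpins, which are the folded precursors from which mature miRNAs are cut. All animals ate chow before the study, and each liver was flash frozen after biopsy. The labels give no age, and the paper describes the animals as age-matched. The library columns of the table bear numbers that match no sample label. They were given no diet, so HFr and chow livers were not compared, and every value below is the authors' total over all libraries. Among the 10 library columns, 1 was nearly empty when looked at, so it added little to any total. A pooled total has no replicates and no spread between animals, and its intervals cover counting error alone.

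In mammals the miR-199 and miR-214 miRNAs are best known from mesenchymal cells, such as fibroblasts and the stellate cells of the liver, which store vitamin A and lay down collagen when the liver is injured. Work in human and mouse places mir-199a-2 and mir-214 on a shared primary transcript, DNM3OS, which runs opposite to the dynamin gene DNM3, while mir-199a-1 lies in DNM2 and mir-199b in DNM1. Each hairpin can release a mature miRNA from its 5p arm and another from its 3p arm, and the first bases of the mature strand, the seed, do most of the pairing with target mRNAs. miR-199a-5p and miR-199b-5p have a seed in common, and the 3p arms of all mir-199 hairpins give the same mature sequence. Raised miR-199a-5p and miR-214 have been linked to liver fibrosis, and miR-199a-3p is known for holding back growth signaling through MET and MTOR. These roles are background and were not measured here.

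The 3p arm of the mir-199 hairpins held nearly all reads of the group. miR-199a-3p and miR-199b-3p carried identical counts at each of their 3 hairpins and were counted once, as miR-199-3p. It had 22210 reads at mir-199a-1, 22258 at mir-199a-2 and 22210 at mir-199b. Its highest row was thus 48 reads above its lowest, 0.216% of the count. miR-199a-5p had 635 reads at mir-199a-1 and 633 at mir-199a-2, a gap of 2 reads or 0.315%. Among the 27 names with several rows and at least 100 reads, this gap between rows had a median of 0.216% and passed 10% in 3. The exceptions were miR-128-3p, miR-194-5p (46304 and 31630 reads) and miR-151b (1748 and 44 reads). Rows of the other names held similar counts, so the highest row was used for every name and rows were not added.

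Of 2020906 reads counted in this way, 23777 belonged to the miR-199 and miR-214 miRNAs, a share of 1.18% (95% Wilson interval 1.16 to 1.19%). miR-199-3p alone had 22258 reads (exact 95% Poisson interval 21967 to 22552), which was 1.10% of the pool and 93.6% of the group (interval 93.3 to 93.9%). The other members together held 1519 reads, or 0.0752% of the pool. miR-214-3p, the main product of mir-214, had 711 reads (interval 659.7 to 765.2). miR-199a-5p had 635 reads (interval 586.6 to 686.4). miR-199b-5p, the 5p arm of the DNM1 hairpin, had 134 reads (interval 112.3 to 158.7). miR-214-5p had 39 reads (interval 27.7 to 53.3) and was the only member under 100.

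**Figure D1:**
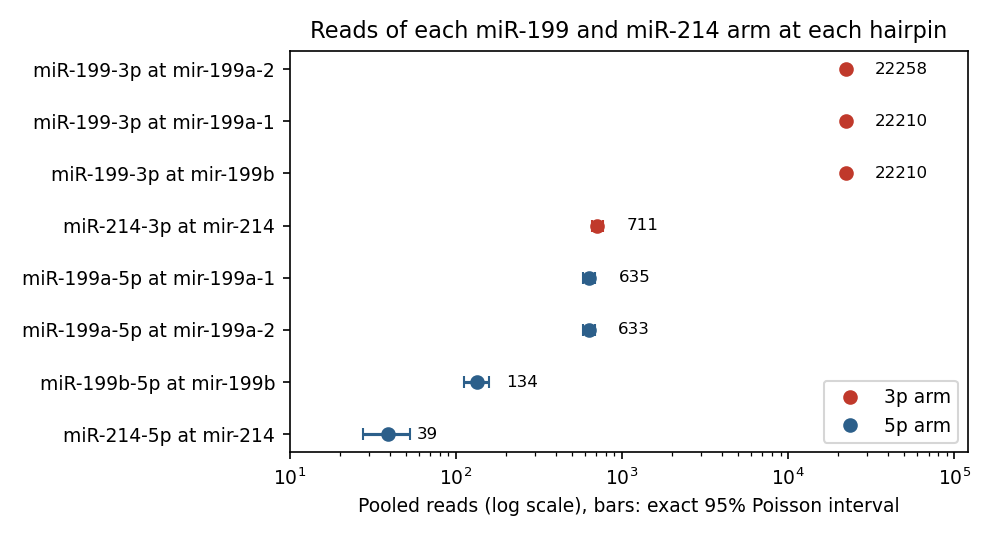
Pooled reads (horizontal axis, log scale) of each mature arm at each of its hairpins, with 3p arms in red, 5p arms in blue and exact 95% Poisson intervals as bars. The rows of miR-199-3p lie at 22210 to 22258 reads, far to the right of the other arms, which run from 39 to 711 reads.

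In the order of all names the members were spread widely. miR-199-3p took place 16 among 679 names with reads, miR-214-3p place 93, miR-199a-5p place 105, miR-199b-5p place 186 and miR-214-5p place 270. Of the 5 distinct members 4 had at least 100 reads, with a median of 635 reads over the 5, against 29.9% of all names with reads, whose median was 16 reads. Around miR-199-3p stood miR-30a-5p (23997 reads) and let-7c-5p (21435 reads), and its counting interval kept it apart from each (ratios of 0.928, interval 0.911 to 0.945, and 1.04, interval 1.02 to 1.06). The other members could not be told from their neighbours in that order. For example, the ratio of miR-214-3p to miR-378i (748 reads), the next above, was 0.951 (interval 0.857 to 1.05), and that of miR-199a-5p to miR-484 (634 reads), the next below, was 1.002 (interval 0.896 to 1.12). miR-214-5p shared its count of 39 with miR-1296-5p, miR-141-3p and miR-24-1-5p.

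**Figure D2:**
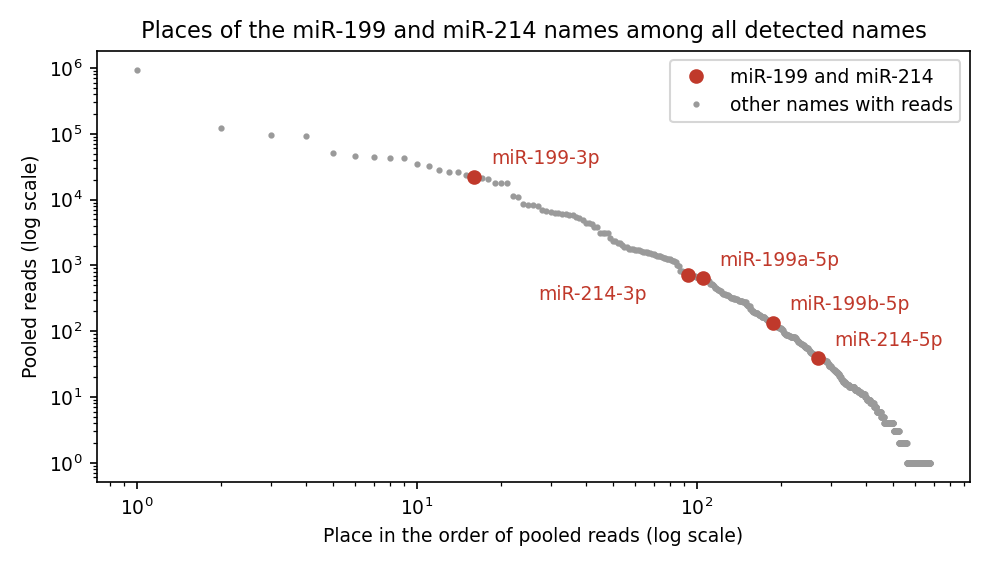
Pooled reads (vertical axis, log scale) against place in the order of reads (horizontal axis, log scale) for every name with reads, with the miR-199 and miR-214 members in red and other names in grey. miR-199-3p sits at place 16, while the other members lie between place 93 and place 270.

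Within the group the steps between neighbouring members were of unequal size. miR-199-3p exceeded miR-214-3p by 31.3-fold (exact binomial 95% interval 29.1 to 33.8), although mir-199a-2 and mir-214 are known to be cut from the same transcript. The 3p reads cannot be divided among the 3 mir-199 hairpins, so this ratio does not compare mir-199a-2 alone with mir-214. miR-214-3p stood just above miR-199a-5p, with a ratio of 1.12 (interval 1.005 to 1.25), and the interval held 1 once widened for the 4 neighbouring pairs (0.976 to 1.29). The order of these members is therefore not settled by the counts. Adding the rows of each name put miR-199a-5p ahead (ratio 0.561) by construction, since it stands on 2 near-equal rows and miR-214-3p on 1. Adding rows also took the ratio of miR-199-3p to miR-214-3p to 93.8. miR-199a-5p exceeded miR-199b-5p by 4.74-fold (interval 3.93 to 5.75), or 9.46-fold with rows added. As miR-199a-5p stands on 2 hairpins and miR-199b-5p on 1, this ratio does not compare single hairpins. miR-199b-5p exceeded miR-214-5p by 3.44-fold (interval 2.39 to 5.04). The 5p arms of mir-199a and mir-199b are near-identical paralogs, so reads could be shared between them in mapping.

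All 4 hairpins had more reads on the 3p arm. For mir-199a-1, 22210 reads came from the 3p arm and 635 from the other, which put the 3p share at 97.2% (interval 97.0 to 97.4%). For mir-199a-2 these arms had 22258 and 633 reads, and the 3p share was also 97.2%. mir-199b had 22210 and 134 reads, a 3p share of 99.4% (interval 99.3 to 99.5%). mir-214 had 711 and 39 reads, a 3p share of 94.8% (interval 93.0 to 96.2%), the lowest of the 4. Seen from the minor arm, miR-214-5p made up 5.20% of its hairpin (interval 3.83 to 7.03%), against 2.78% for miR-199a-5p at mir-199a-1 (interval 2.57 to 3.001%) and 0.600% for miR-199b-5p (interval 0.507 to 0.710%). These intervals do not overlap. However, the value of each mir-199 hairpin includes 3p reads that all 3 of them share. With the shared arms split evenly over their hairpins the 3p share was 95.9% in mir-199a-1 and mir-199a-2 and 98.2% in mir-199b. Counted over the mir-199 hairpins together, 22258 reads on the 3p arm stood against 769 on the 5p arms, a 3p share of 96.7% (interval 96.4 to 96.9%) and a ratio of 28.9 (interval 26.9 to 31.1). That share lay just above the interval of mir-214, whereas the 95.9% of mir-199a-1 and mir-199a-2 under the even split lay within it, so mir-214 is not set apart from them under every way of counting.

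The dominance of 1 arm was not exceptional in these livers. Taking the 179 hairpins that had names for both arms and a minimum of 100 reads, 79 (44.1%) had more reads on the 3p arm, and the major arm held a median of 99.1%. A more one-sided split than in mir-214 was seen in 125 hairpins (69.8%), than in mir-199a-1 in 112 (62.6%), and than in mir-199a-2 in 111 (62.0%). For mir-199b it was 76 hairpins (42.5%), so mir-199b alone fell above the median. It fell below when at least 1000 reads were required (55.6% of 90 hairpins were then more one-sided). The place of mir-199b also rests on crediting it with all 3p reads shared by the mir-199 hairpins. Its 3p share was 98.2% with those reads split evenly and 96.7% for the mir-199 hairpins summed, both under the 99.1% median. In the order of 3p shares mir-199a-1 and mir-199a-2 lay between mir-148b (96.8%) and mir-590 (97.3%). mir-214 lay between mir-542 (94.5%) and mir-200b (96.5%), and mir-199b between mir-23b (99.4%) and mir-378a (99.5%). The 5p arms of these hairpins were thus minor but measurable products.

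**Figure D3:**
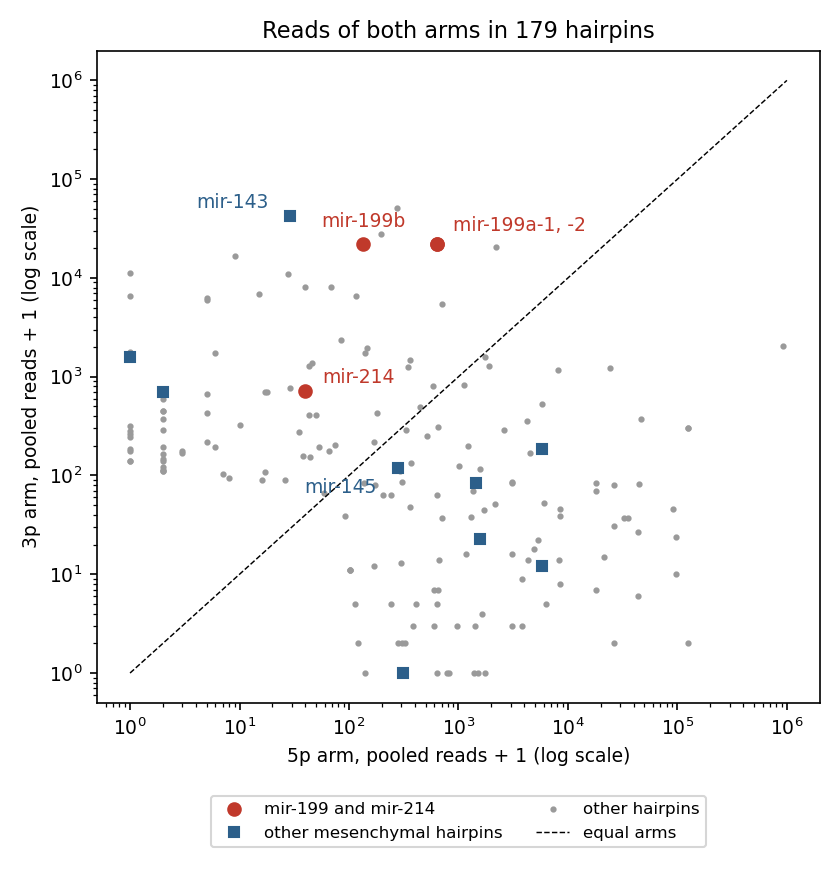
Reads on the 3p arm (vertical axis, reads + 1, log scale) against reads on the 5p arm (horizontal axis, reads + 1, log scale) in 179 hairpins, with mir-199 and mir-214 in red, other mesenchymal hairpins as blue squares, other hairpins in grey and a dashed line at equal arms. All red points lie above the line, with mir-199a-1 and mir-199a-2 on top of each other, while mir-145 lies below it.

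Other miRNAs known from mesenchymal cells were set beside the group. They were both arms of mir-143 and mir-145, miR-125b-5p, miR-100-5p, miR-99a-5p, miR-10b-5p, miR-221-3p and miR-222-3p. The last of these, and miR-221-3p, also stand in the fibrosis-linked list below. Whether any is particular to mesenchymal cells in these livers was not tested. The 10 other mesenchymal names held 54072 reads, or 2.68% of the pool, so that the miR-199 and miR-214 miRNAs had 0.440 times as many reads (interval 0.433 to 0.446). Both sets were led by a single 3p arm. miR-199-3p had 22258 reads and miR-143-3p, known from smooth muscle and fibroblasts, had 42313, a ratio of 0.526 (interval 0.518 to 0.535). This order depended on the counting of rows: with the 3 rows of miR-199-3p added the ratio was 1.58. miR-143-3p stands on 1 row, and adding rows that hold nearly the same count would count those reads repeatedly. miR-199-3p exceeded miR-125b-5p (5752 reads) by 3.87-fold and miR-221-3p (1574 reads), a miRNA linked to stellate cell activation, by 14.1-fold.

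The mir-143 and mir-145 pair is, like mir-199a-2 and mir-214, known to be cut from 1 transcript. The 31.3-fold gap of miR-199-3p over miR-214-3p was narrower than that of miR-143-3p over miR-145-5p (280 reads), which was 151.1-fold (interval 134.4 to 170.6). The gaps are not those of single transcripts alike, because miR-199-3p pools the reads of 3 hairpins and miR-143-3p comes from 1. The arms differed as well. mir-143 had 99.9% of its reads on the 3p arm, whereas mir-145 leaned to the 5p arm (118 reads from the 3p and 280 from the 5p arm), with 29.6% on the 3p arm (interval 25.4 to 34.3%). Both miR-214-3p and miR-199a-5p exceeded miR-145-5p, by 2.54-fold (interval 2.21 to 2.93) and 2.27-fold (interval 1.97 to 2.62). Adapter ligation favors some miRNA ends over others, and its part in these ratios was not tested.

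miR-199-3p was set beside miRNAs known from several cell types, though its reads in whole tissue cannot be assigned to any of them. It had 1.09 times the reads of the endothelial miR-126-3p (20344 reads, interval 1.07 to 1.12), 17.9 times those of miR-142-3p (1242 reads), which is known from leukocytes, and 29.2 times those of miR-200b-3p (763 reads), which is known from bile duct epithelium. Of all 679 names with reads, 97.8% lay at or below miR-199-3p, so few names of any list would be above it. None of the 2 endothelial, 5 leukocyte, 4 erythroid or 5 biliary names exceeded it. In the hepatocyte list miR-122-5p (922528 reads), miR-194-5p (46304 reads, or 31630 at its lower row) and miR-148a-3p (27892 reads) did. The ratio of miR-199-3p to miR-122-5p was 0.0241. Without miR-122-5p in the pool the share of the whole group was 2.16%. Of the remaining members, miR-214-3p lay above 3 of the 5 leukocyte names and above 4 of the 5 biliary ones. Among all names with reads, 86.5% lay at or below miR-214-3p. miR-199b-5p and miR-214-5p lay below all 5 leukocyte names, with 72.8% and 60.4% of all names with reads at or below them. The interval of miR-214-3p (659.7 to 765.2 reads) overlapped those of miR-223-3p (643.3 to 747.6) and miR-200a-3p (641.4 to 745.5), both counted below it. It also overlapped that of miR-200b-3p (709.8 to 819.1), counted above it. In whole tissue, fewer cells of a type and less RNA per cell cannot be told apart. The stellate cell origin of the group was taken from its label and could not be checked, since the table holds miRNAs and not the genes that define these cells.

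**Figure D4:**
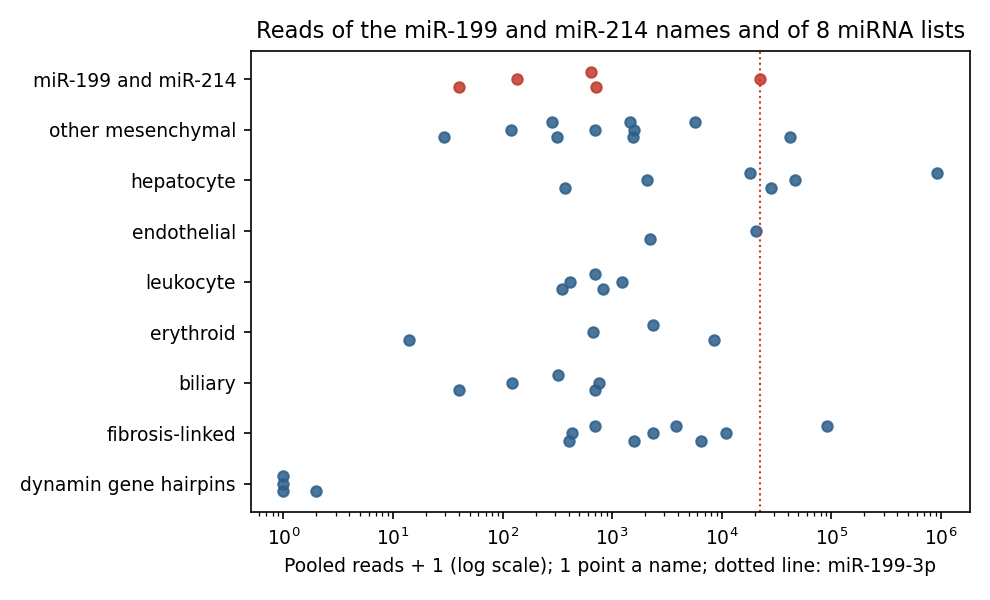
Pooled reads + 1 (horizontal axis, log scale) of each name in the miR-199 and miR-214 group, in red, and in 8 miRNA lists, in blue, with miR-199-3p as a dotted line. Among the lists, points to the right of the line are miR-143-3p, miR-122-5p, miR-194-5p, miR-148a-3p and miR-21-5p.

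Among 9 miRNAs linked to liver fibrosis in either direction, miR-199-3p was exceeded by miR-21-5p alone. Few would be above it in any list, as 97.8% of all names with reads lay at or below it. The ratio of miR-199-3p to miR-21-5p (91173 reads), which is known to rise in injured liver, was 0.244 (interval 0.241 to 0.248). miR-199-3p had 2.05 times the reads of miR-29a-3p (10848 reads, interval 2.01 to 2.10), which represses collagen genes. miR-214-3p and miR-199a-5p lay lower, with 86.5% and 84.7% of all names with reads at or below them. Each was exceeded by at least 6 of the 9, among them miR-27b-3p (6527 reads), miR-34a-5p (3804 reads) and miR-29c-3p (2365 reads). All 9 had at least 100 reads, as did 29.9% of all names with reads.

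Other hairpins of the dynamin genes gave almost no reads. Of their 4 names 1 had any, while 26.2% of all 2587 names did, so this was not particular to them. In human, mir-3120 lies on the strand opposite to mir-214, mir-3154 lies beside mir-199b, and mir-638 lies in DNM2. miR-214-3p had 711 reads and miR-214-5p 39, whereas miR-3120-3p had 1 read (exact Poisson interval 0.0253 to 5.57). miR-3120-5p, miR-3154 and miR-638 had 0 reads, each with an exact Poisson upper limit of 3.69 reads. The fixed limit of 3 reads set for a count of 0, which is lower, is a share of 0.000148% of the pool. Whether depth or a vervet sequence that departs from the human one lay behind these low counts was not tested. RefSeq's vervet genes on assembly mChlSab1.0.hap1 include DNM1, DNM2 and DNM3 on 3 different chromosomes and 0 genes of type miRNA, so the hairpins themselves were not placed in the vervet genome.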

How the data were processed

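Per the labels, total RNA (Zymo Direct-zol) went into Illumina TruSeq small RNA libraries. The study's methods name a GAIIx sequencer and miRDeep2 for annotating and counting miRNAs, and cutadapt 1.10 and Bowtie appear in the submitters' processing notes. The genome build and the release of miRNA names were not given in the sources used here. Rows carry human names, so a vervet miRNA that departs from the human sequence may be counted too low. Raw counts were deposited by the authors, and the column used was their total count per row, which weighs deeper libraries more. The other 20 columns (raw and normalized values of 10 libraries) match no sample and, beyond inspection, were not used, so depth per animal, SDs and diet tests are not reported.

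Each name was represented by its highest row, and miR-199b-3p was dropped because its rows repeat those of miR-199a-3p, which left 2020906 reads. Named miRNAs were the 6 members, those of 8 lists, and the names and hairpins next to each member in the order of reads or of 3p share. Those set beside members as ratios were chosen after their values were seen. Members and lists were chosen with earlier results of these data known. Shares have 95% Wilson intervals, ratios exact binomial and counts exact Poisson intervals, and a count of 0 was given a limit of 3 reads. The sources name no molecular identifiers, so intervals and limits cover counting error only. The code for the intervals was checked on simulated independent reads, which says nothing of how the intervals suit the real reads. Alternatives were adding precursor rows, counting both miR-199 3p names, leaving out miR-122-5p, splitting or summing shared arms, a minimum of 10 or 1000 reads per hairpin, and 1 hairpin for each pair of mature names. Added after seeing the data were counting every repeated name once, the widened interval, and the row sums for the ratio of miR-214-3p to miR-199a-5p and for places in the order. Computations used Python 3.11.15, pandas 2.3.3 and scipy 1.17.1.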

Additional observations from a re-analysis of the deposited data

How the results depend on the processing

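Adding precursor rows raised the share of the group to 2.64%, against 1.18% with 1 row per name, took miR-199-3p to place 7 with 66678 reads, and gave ratios of 9.46 for miR-199a-5p to miR-199b-5p and 93.8 for miR-199-3p to miR-214-3p. It turned round the order of miR-199-3p and miR-143-3p (ratio 1.58) and of miR-214-3p and miR-199a-5p (ratio 0.561), by construction, since names with several near-equal rows are then counted repeatedly. The ratio of miR-214-3p to miR-199a-5p of 1.12 no longer cleared 1 with the interval widened for 4 pairs. The share was 2.25% with both miR-199 3p names counted, 2.16% without miR-122-5p, and 1.18% with every repeated name counted once. The 3p share of mir-199a-1 and mir-199a-2 was 95.9% with shared arms split evenly, that of mir-199b 98.2%, and 96.7% with the mir-199 hairpins summed. With at least 1000 reads per hairpin, 70.0% of hairpins were more one-sided than mir-199a-1, 68.9% than mir-199a-2 and 55.6% than mir-199b, while mir-214 has too few reads to enter. No paired analysis was possible because columns of single libraries could not be matched to animals, and leaving out each library was not run because columns matched to no sample were kept out of every computation. Among the 5 distinct members depth limits miR-214-5p most, with an interval of 27.7 to 53.3 reads.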
